A study of Mus musculus with 35 samples.

Results

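The replication-dependent histone genes are the 70 genes, of 32544 in the count tables, whose symbols begin with Hist1h, Hist2h, Hist3h or Hist4h. Membership was set by the symbol. The set holds 6 H1 linker genes and 20 H2A, 19 H2B, 12 H3 and 13 H4 core genes. It was read in the hippocampus of the mouse after an intra-amygdala injection of kainic acid (KA), a glutamate receptor agonist that triggers status epilepticus and later spontaneous seizures, and 13 of the 19 m6A libraries were set against the total RNA of the same animal.

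Core histones H2A, H2B, H3 and H4 form the protein spool of the nucleosome, and H1 binds the DNA that enters and leaves it. In dividing cells these genes are switched on together in S phase, and their short intronless mRNAs end not in a poly(A) tail but in a stem-loop that the stem-loop binding protein Slbp recognises. In non-dividing cells such as neurons some of them are instead read through to a downstream signal and polyadenylated, and separate replication-independent histone genes supply most new histone. N6-methyladenosine (m6A) is an internal methyl mark on RNA that is pulled down with an antibody, and libraries made from total RNA with random primers can read transcripts with or without a tail.

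All mice were adult male C57BL/6JOlaHsd animals injected into the amygdala with KA or with phosphate-buffered saline (PBS), and the KA mice received lorazepam after seizure onset to lessen the seizures. Hippocampi were taken 24 h or 2 weeks later. The m6A fraction was sequenced from 3 PBS and 5 KA mice at 24 h and from 5 PBS and 6 KA mice at 2 weeks. Input libraries with at least 100000 counts came from 1 PBS and 3 KA mice at 24 h and from 3 PBS and 6 KA mice at 2 weeks, and all 13 of these mice also had an m6A library. Seizures after KA are followed by neuronal death and glial reaction, so the 4 groups can also differ in cell composition. In such bulk tissue, fewer cells of a type and less RNA per cell cannot be told apart.

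Total counts ran from 3057578 to 12694434 in the 13 inputs and from 1652933 to 34564536 in the 19 m6A libraries. The shallowest m6A libraries were those of KA 24 h mice 98 and 67. A further 3 inputs with 3171, 4621 and 34486 counts (KA 24 h mouse 97 and PBS 24 h mice 71 and 73) entered no main value. Markers of granule and pyramidal cells were counted in every m6A library and every input with at least 100000 counts. These 5 genes summed to 286 to 1058 CPM (counts scaled to a library total of 1000000) in m6A and 302 to 663 CPM in the inputs. The 3 choroid plexus markers summed to 27.1 to 2283 CPM in the m6A libraries and 72.4 to 1559 CPM in the inputs. What this spread means for the histone values was not tested. The column name states the assay for 8 of the 35 libraries. For the other 27 it was inferred, a numeric prefix being taken as m6A and its absence as input, and every direction of m6A over input below rests on that inference.

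The feature that names these genes was looked for first in their transcripts. Of the 61 members matched to GENCODE protein-coding transcripts (vM39, GRCm39), 41 held the 16-base histone 3′ stem-loop, against 67 of all 21623 coding genes searched (0.310%). The windows below show it in capitals, with up to 5 bases on each side, for members on which the later comparison turns. The first 4 belong to H1, H2B, H2A and H3, and the last 3 to H4.

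Hist1h1c: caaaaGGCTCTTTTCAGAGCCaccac

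Hist1h2bg: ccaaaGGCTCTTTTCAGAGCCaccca

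Hist2h2ac: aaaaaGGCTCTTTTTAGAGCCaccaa

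Hist1h3d: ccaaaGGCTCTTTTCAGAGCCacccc

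Hist1h4h: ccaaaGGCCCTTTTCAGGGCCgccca

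Hist1h4a: ccaaaGGCCCTTCTCAGGGCCgccca

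Hist1h4m: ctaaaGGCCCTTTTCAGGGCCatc

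The 3 H4 stems shown open with GGCCCT and the other 4 with GGCTCT. How far the annotated transcript runs on after the loop differed more widely than the loop itself. It ended within 60 bases in 19 of the 41 members and went on for more than 300 bases in 17. Hist1h4m stopped 3 bases, Hist1h4h 46 bases and Hist2h2ac 57 bases after the loop, whereas Hist1h1c and Hist1h1e ran on for 840 and 1153 bases. Hist1h2bc, Hist2h2bb and Hist2h2be had no match in their annotated transcripts, which says only that these letters were not in those transcripts. Some unmatched transcripts were short, with 381 bases for Hist2h2bb, 393 for Hist1h2ai and 411 for Hist1h3i, against 2414 for Hist1h2bc and 2620 for Hist2h2be. Whether the short ones stop before the place of the loop was not tested. A missing match therefore does not show that a gene lacks the loop.

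Members lay in the known histone clusters of GRCm38 (mm10), and 68 matched a single RefSeq gene. Of these, 53 of the Hist1 genes sat on chromosome 13 between 21715711 and 23934913. The 10 Hist2 genes sat on chromosome 3 between 96219885 and 96270192, 3 Hist3 genes lay on chromosome 11, and Hist4h4 alone lay on chromosome 6 (136803993 to 136804431, minus strand). Hist1h2al, named for an H2A, mapped instead to a pseudogene at 51200084 on chromosome 13.

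Promoters of the classes differed in their sequence words. Among 60 members with a RefSeq promoter of 300 bases, the octamer ATTTGCAT, searched on both strands, was in 7 of 16 H2A and 7 of 16 H2B promoters and in none of the H1, H3 or H4 promoters, against 1.74% of all 32851 promoters. Neighbouring H2A and H2B genes on opposite strands can hold the same octamer, which was then counted in both classes. This was so for Hist1h2aa and Hist1h2ba, Hist1h2ae and Hist1h2bg, and Hist1h2ah and Hist1h2bk. CCAAT, on both strands, was in every H1, H2A, H2B and H3 promoter but in 3 of 12 H4 promoters, against 37.4% of all. TATAAA, also searched on both strands, was in 13.6% of all promoters and in 40% (H3) to 68.8% (H2A) of those of a class. The 250 bases before the start are shown for an H2B and an H4 gene, the members called highest and lowest in the comparison of m6A with input, with the 3 words in capitals. The Hist1h4h stretch holds none of them.

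Hist1h2bg, chr13:23571150-23571399, plus strand, GRCm38: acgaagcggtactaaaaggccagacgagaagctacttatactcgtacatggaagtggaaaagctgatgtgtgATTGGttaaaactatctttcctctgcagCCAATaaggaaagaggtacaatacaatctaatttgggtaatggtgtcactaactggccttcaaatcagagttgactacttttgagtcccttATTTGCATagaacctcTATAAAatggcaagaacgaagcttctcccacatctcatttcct

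Hist1h4h, chr13:23530794-23531043, plus strand, GRCm38: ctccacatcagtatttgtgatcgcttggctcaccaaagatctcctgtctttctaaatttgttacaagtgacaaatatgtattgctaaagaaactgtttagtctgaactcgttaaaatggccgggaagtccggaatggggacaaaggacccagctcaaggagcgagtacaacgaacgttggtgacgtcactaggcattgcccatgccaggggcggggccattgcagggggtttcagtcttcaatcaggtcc

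Histone copies are alike, so reads can be shared between them. Over the 61 members with a transcript, a median of 45.8% of the 50-base words of a member also occurred in another member, and 26 members shared more than 50%. H1 genes shared least (median 1.10%) and H2A genes most (67.1%). All 50-base words of Hist2h2aa2 were found in Hist2h2aa1. Values of single core histone genes are therefore uncertain where the authors' counting could move reads between copies, and class sums are given beside them.

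The 70 genes together took 334 ± 42.4 CPM (SD, n = 13; 265 to 399) in the inputs and 447 ± 62.5 CPM (SD, n = 19; 358 to 583) in the m6A libraries. Counts were present in all 13 inputs for 38 members and in all m6A libraries for 38, and no member was at 0 throughout. A single H4 gene, Hist4h4, which lies outside the main clusters, held 28.9% of all histone counts in the inputs. Per kilobase of gene, the input level was 220 CPM for Hist4h4, 41.1 for Hist1h4d, 34.2 for the H2A gene Hist3h2a, 30.6 for Hist2h2aa2 and 30.4 for the linker histone Hist1h1c. Testis histones were near 0, with medians in the inputs of 0.175 CPM for Hist1h1t, 0 for Hist1h2aa and 0.444 for Hist1h2ba.

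**Figure D1:**
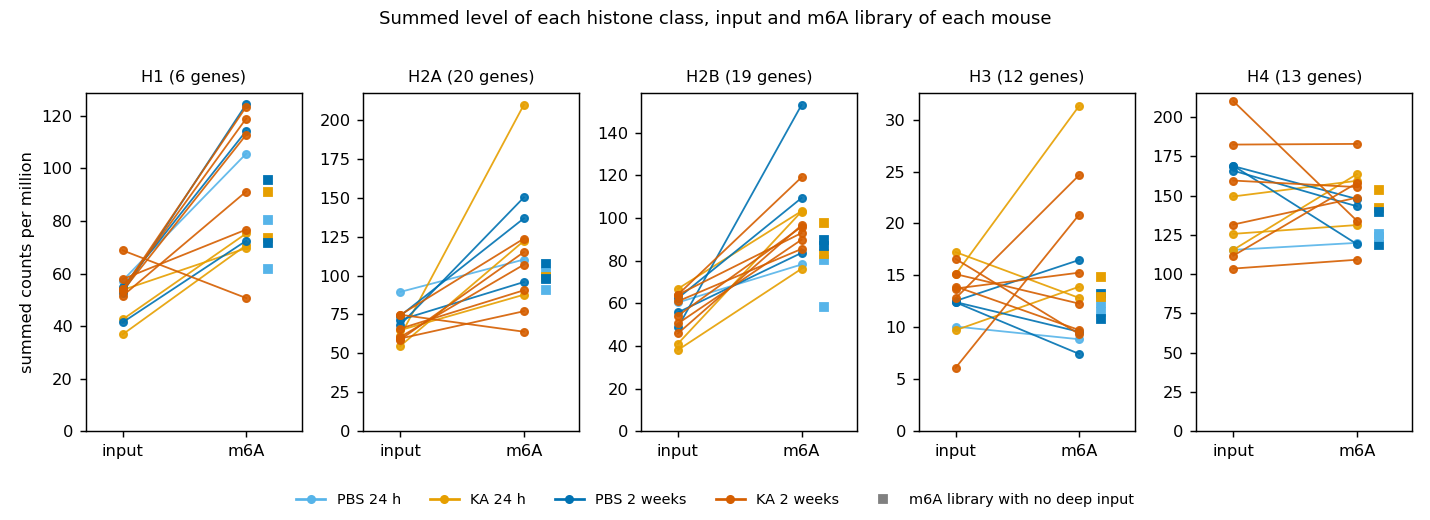
Summed CPM (linear axis) of each histone class in the input and m6A library of each mouse. Lines join the libraries of a mouse, squares are m6A libraries with no deep input, and colours are the groups. H1, H2A and H2B sums were higher in the m6A library of 12, 12 and 13 of 13 mice, while H3 and H4 sums were higher in 6 and 8 mice.

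The makeup of the histone pool differed between the assays. H2B summed to 54.9 CPM in the inputs and 93.8 CPM in the m6A libraries, and was higher in m6A in 13 of 13 mice. H1 went from 52.2 to 88.5 CPM and H2A from 67.6 to 109.8 CPM, each higher in 12 of 13 mice. H3 stood at 12.9 and 14.1 CPM and H4 at 146.9 and 140.8 CPM. As a share of histone counts, H4 made up 43.6% of the inputs and 31.8% of the m6A libraries, Hist4h4 28.9% and 21.8%, and H2B 16.4% and 21.0%. The summed level of the set was higher in m6A than in input in all 13 mice, by 0.47 ± 0.30 on the log2 scale (mean and SD). Scaled the same way, by library totals, the median of all genes tested was 0.18 higher in m6A.

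Gene by gene, the m6A fraction was compared with input within the 13 mice. Of the 38 members with enough counts to test, 10 were higher and 5 lower in m6A at an adjusted P under 0.05 (edgeR quasi-likelihood test, mouse as a block). Ranges below cover all 19 m6A libraries, the tests the 13 pairs, and counts of mice are in CPM by library totals. Across all 14640 genes tested, 15.6% were higher and 14.6% lower. A change of more than 1 on the log2 scale was called for 5 members upward and 3 downward, against 1.09% and 0.779% of all genes. The median log2 difference was 0.15 over the members and -0.03 over all genes. All 10 members that were higher encode H1, H2A or H2B, namely 2 of 5 H1, 4 of 10 H2A and 4 of 8 H2B genes tested. Of those that were lower, 3 were among 10 H4 genes, 1 among 5 H3 genes and 1 was the H2A gene Hist3h2a. The labels describe the m6A libraries as poly(A) RNA and the inputs as total RNA, so the antibody and a selection for tails cannot be told apart here.

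**Figure D2:**
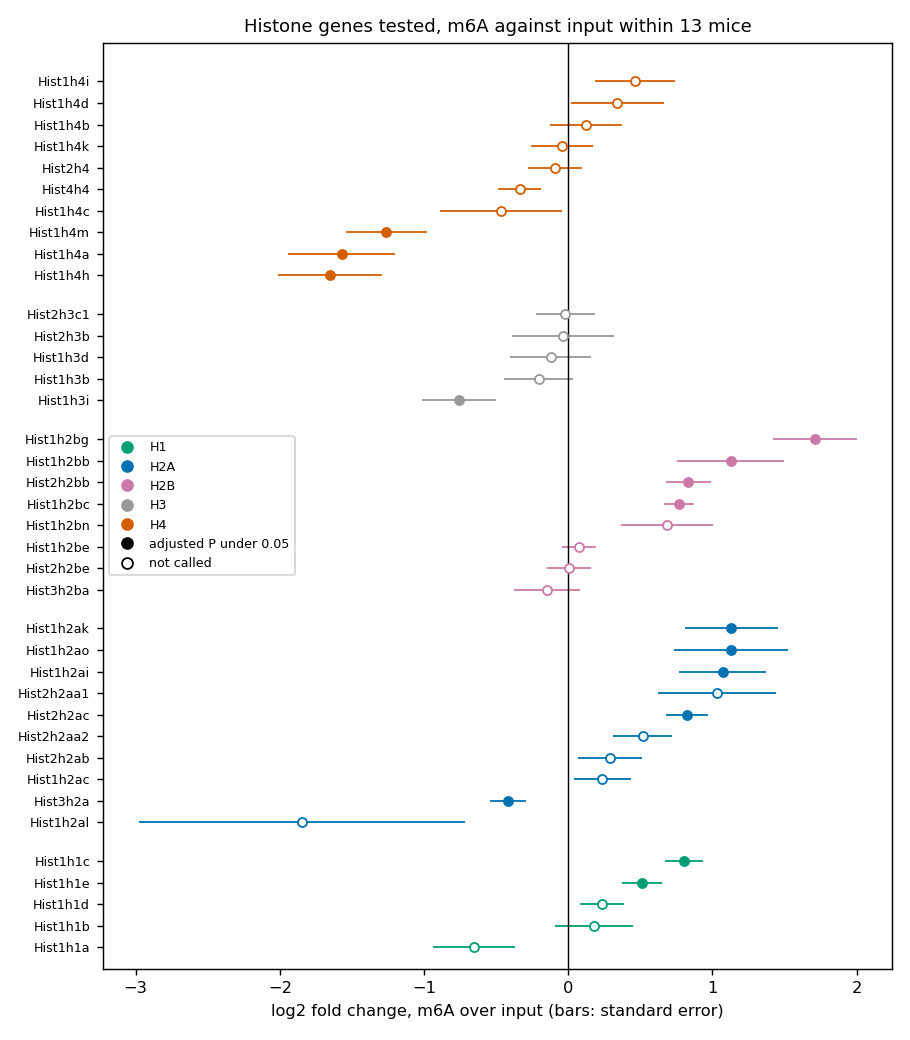
Log2 fold change of m6A over input (points, with standard errors) for the 38 histone genes tested in 13 mice, ordered by class and coloured by it. Filled points passed an adjusted P under 0.05. H2B and H2A genes lie mostly to the right of 0, all 5 H3 genes to the left, and 3 H4 genes below -1.

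Hist1h2bc, the most counted H2B gene and one with polyadenylated transcripts in differentiated tissue, was the member with the firmest difference. Its inputs ran from 7.17 through a median of 15.3 to 29.7 CPM, and its m6A libraries from 7.86 through 31.5 to 51.9 CPM. The ranges overlapped between mice, but the m6A value was the higher in every one of the 13 mice (12 on the TMM scale of the test, where KA 24 h mouse 98 was lower in m6A). The difference was 0.77 on the log2 scale (SE 0.10, adjusted P = 4.25e-05). Its relative Hist1h2bg, another H2B gene, went from 0.512 to 3.92 CPM in the inputs (median 1.78) to 3.53 to 27.8 CPM in m6A (median 10.9), again higher in 13 of 13 mice, and on the TMM scale too. That was the steepest rise of any member called (log2 1.71, SE 0.29, adjusted P = 0.000400). Of the 50-base words of Hist1h2bg, 49.7% were found in another member and 45.0% in Hist1h2bc. Reads could therefore move between these genes, and their rises are not shown to be separate. For Hist1h2bc the share found in another member was 11.6%.

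The H2B gene Hist2h2bb of the chromosome 3 cluster was read at 5.31 to 22.9 CPM in the inputs (median 11.2) and 7.05 to 46.2 CPM in m6A (median 16.6). It was higher in all 13 paired mice, or in 12 on the TMM scale with PBS 24 h mouse 1 the exception (log2 0.83, SE 0.16, adjusted P = 0.000757). The 6 m6A libraries of mice without a deep input, whose column names share the prefix 4, had only 7.05 to 10.6 CPM of it, against 9.34 to 46.2 CPM in the other 13. For Hist1h2bg the same 6 libraries stood higher (median 17.0 against 6.11 CPM). None of the 52 members compared was entirely above or below the others in those 6 libraries. The library set was not part of the within-mouse comparison, in which the 6 mice of set 3 and the 7 mice of set 5 each showed Hist1h2bc, Hist1h2bg, Hist2h2bb and Hist2h2ac higher in m6A in every mouse in CPM.

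The last H2B gene called, Hist1h2bb, was sparse (inputs 0 to 2.94 CPM, m6A 0.0715 to 14.7 CPM). Its rise of 1.13 (SE 0.37, adjusted P = 0.0287) leaned on PBS 2 weeks mouse 4, whose m6A library held the top value, and without that mouse the difference was 0.83 and no longer called. It also lost its call without mouse 1 (1.03) or mouse 9 (1.11). Hist1h2be and Hist2h2be, H2B genes listed with Hist1h2bc for their polyadenylated transcripts, had differences of 0.07 and 0.00 and were not called. Hist1h2be was at a median of 11.7 CPM in inputs and 12.5 CPM in m6A. Hist2h2be was at 3.66 and 4.73 CPM.

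Among linker histones, Hist1h1c (H1.2) ran from 13.1 to 34.2 CPM in the inputs (median 20.7) and from 22.4 to 65.9 CPM in m6A (median 44.1). It was higher in m6A in 12 of 13 mice, the exception being KA 2 weeks mouse 6 with 28.9 CPM in input and 22.4 CPM in m6A. The difference was 0.80 (SE 0.13, adjusted P = 0.000268). Hist1h1e (H1.4) followed with 0.51 (SE 0.14, adjusted P = 0.00934), from an input median of 20.8 to an m6A median of 30.6 CPM. Of their 50-base words, 8.54% and 18.4% were found in another member.

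**Figure D3:**
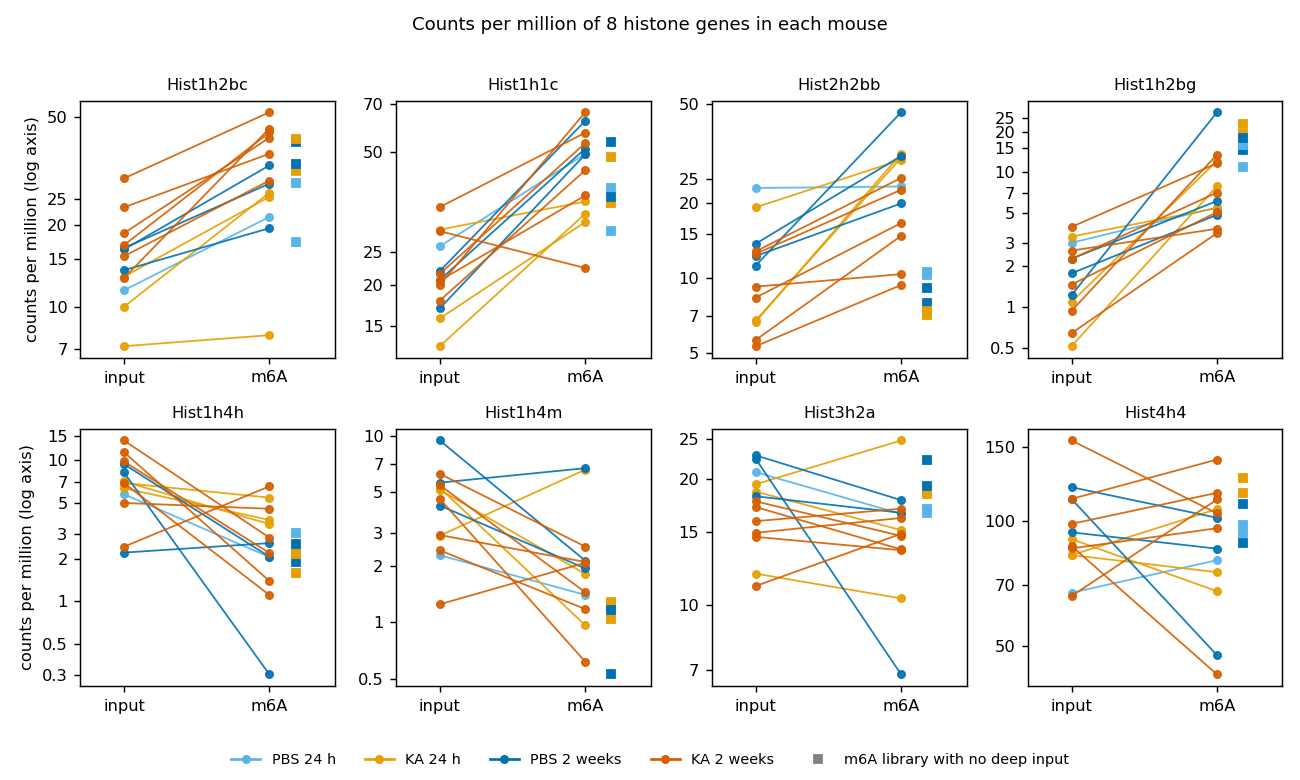
CPM (log axis) of 8 histone genes in the input and m6A library of each mouse. Lines join the libraries of a mouse and squares are m6A libraries with no deep input. Lines for the 3 H2B genes rise in all 13 mice and those for Hist1h1c in 12, those for Hist1h4h fall in 11 and those for Hist1h4m in 10, and those for Hist4h4 run both ways.

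On the H2A side, Hist2h2ac rose from a median of 6.18 CPM (3.58 to 12.9) in the inputs to 9.30 CPM (5.03 to 24.8) in m6A. All 13 mice were higher in m6A in CPM and 12 on the TMM scale (log2 0.83, SE 0.15, adjusted P = 0.000472). The other H2A genes called upward, Hist1h2ai (1.07), Hist1h2ak (1.13) and Hist1h2ao (1.13), are named after their values were seen. The share of 50-base words found in another member was 37.4% for Hist2h2ac, 84.6% for Hist1h2ai and 50.6% for Hist1h2ak. Hist1h2ao lost its call when any of 9 mice was left out (0.94 to 1.15). Hist3h2a, a gene of the small chromosome 11 cluster, went against its class. It is on the same list of members with polyadenylated transcripts as Hist1h2bc, Hist1h1c, Hist1h2be and Hist2h2be. Its inputs were at 11.1 to 22.8 CPM (median 17.7) and its m6A libraries at 6.84 to 24.8 CPM (median 16.6), lower in 9 of 13 mice in CPM and in 12 on the TMM scale. The drop of -0.42 (SE 0.13, adjusted P = 0.0191) was lost when libraries were scaled by their totals (-0.21), a scaling that moved the median of all genes from -0.03 to 0.18.

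Hist2h2aa1 and Hist2h2aa2 are near-identical H2A copies that face away from each other on chromosome 3. Hist2h2aa2, the most counted H2A gene, had medians of 17.1 CPM in input and 35.4 CPM in m6A, and its own difference of 0.52 was not called (adjusted P = 0.0668). In the m6A library of PBS 2 weeks mouse 4 the split was turned round, with 92.9 CPM for Hist2h2aa1 and 5.47 CPM for Hist2h2aa2. In each other m6A library and in each input Hist2h2aa2 was the higher of the pair. Summed, the copies went from a mean of 22.3 CPM in input to 48.4 CPM in m6A over the 13 mice, higher in 12 of them, and the sum was called (log2 0.77, SE 0.16, adjusted P = 0.00158, edgeR). The sum was chosen after the values were seen.

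**Figure D4:**
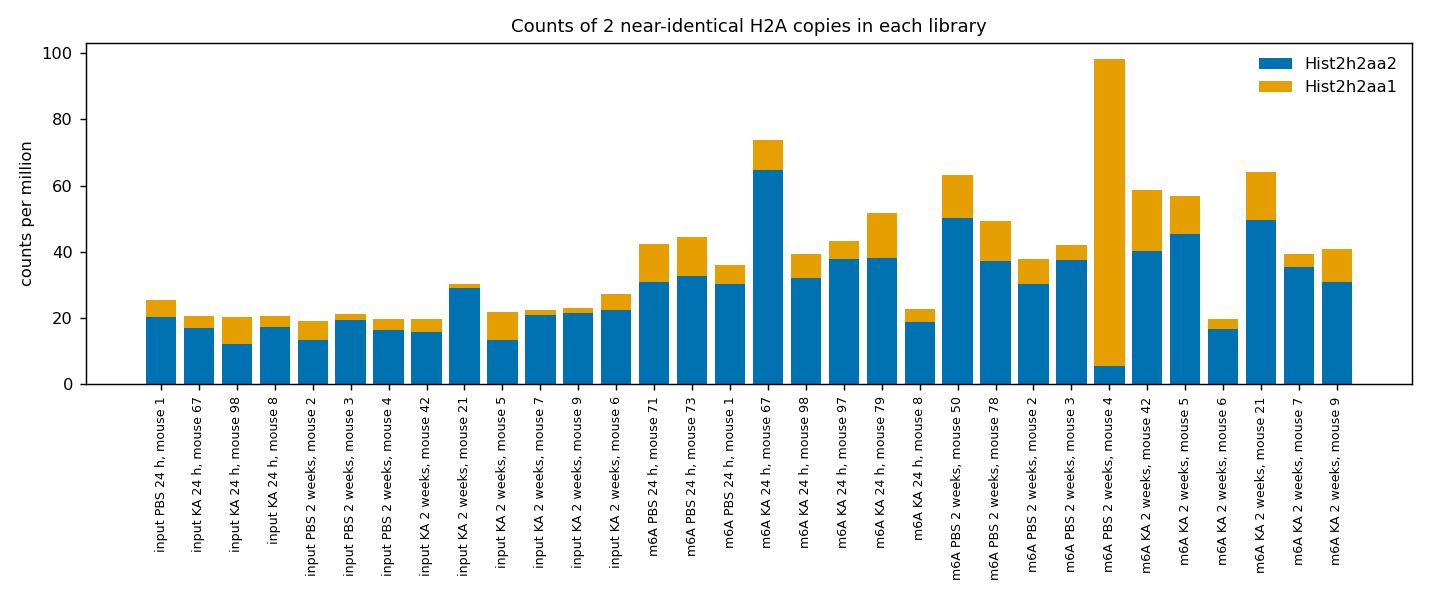
CPM (bars from 0) of Hist2h2aa2 and, stacked on it, Hist2h2aa1 in each deep input and m6A library. The stacks reach 18.9 to 30.3 in the inputs and mostly stand higher in the m6A libraries, and in 1 m6A library (PBS 2 weeks mouse 4) nearly all counts lie on Hist2h2aa1.

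Certain H4 genes were lower in the m6A fraction. Hist1h4h had 2.22 to 13.8 CPM in the inputs (median 6.91) and 0.304 to 6.55 CPM in m6A (median 2.29), and was lower in m6A in 11 of 13 mice. The fall was -1.65 (SE 0.36, adjusted P = 0.00313). Hist1h4a fell by 1.57 (SE 0.37, adjusted P = 0.00410; lower in 11 of 13 mice) from an input median of 1.71 to 0.760 CPM. Hist1h4m fell by 1.26 (SE 0.28, adjusted P = 0.00266; lower in 10 of 13 mice) from 4.58 to 1.40 CPM. The share of 50-base words found in another histone gene was 45.8% for Hist1h4h, 30.6% for Hist1h4a and 89.8% for Hist1h4m.

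Other H4 genes did not share the drop. Hist4h4 was at 66.0 to 156 CPM in the inputs (median 90.4) and 42.8 to 140 CPM in m6A (median 97.6). Its difference of -0.34 was not called (adjusted P = 0.0948), and 6 of 13 mice were higher in m6A (5 on the TMM scale). Hist1h4d, next in level, differed by 0.34 and was not called either. The H3 gene with the highest level, Hist1h3d, had medians of 2.29 CPM in the inputs and 2.08 CPM in m6A (log2 -0.12, not called). The lone H3 gene called, Hist1h3i (-0.76, adjusted P = 0.0317), is named after its values were seen and lost its call without mouse 1 (-0.74), 5 (-0.71) or 7 (-0.61).

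The loop and a common m6A word were then set beside the calls. GGACT, searched on the sense strand as the usual core of m6A sites, occurred in all 12 H3 members but in 2 of 15 H2A and 3 of 16 H2B members, against 90.4% of all coding genes. Such shares also depend on transcript length, which was not matched. Median density was 1.61 GGACT per kilobase in H3 and 0 in H2A and H2B, against 1.01 in all coding genes. GGACT was found in 3 of 9 members called higher, 1 of 4 called lower and 11 of 20 not called that had a transcript. Among those called higher, 5 copies lay in Hist1h1c, 3 in Hist1h2bc and 1 in Hist1h1e, whose first copies are shown in capitals beside that of Hist1h3i, the member called lower.

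Hist1h1c: aggttgcaagGGACTcgatcccggc

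Hist1h2bc: tcagtccctaGGACTgttgttcaaa

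Hist1h1e: atgatttcaaGGACTttaaagagcc

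Hist1h3i: agatcgcgcaGGACTtcaagaccga

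Across the 33 tested members with a transcript, the number of GGACT per kilobase and the log2 difference had Pearson's r of -0.06 and Spearman's rho of -0.21. Across the 21 tested members with a loop, the bases after it and the difference had a rho of 0.07, and without the H4 genes -0.39 (n = 13). These are descriptions across genes that share reads and libraries. Median run-on was 678 bases in the 5 members called higher that had a loop, 46 bases in the 3 called lower and 752 bases in the 13 not called.

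Divergent H2A and H2B genes share a promoter, and 8 such pairs were found within 300 bases. Both genes were tested in just 1 pair, Hist1h2ak and Hist1h2bn, whose starts lie 164 bases apart. Their differences were 1.13 (called) and 0.69 (not called).

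Taken by condition, fewer members passed. In the PBS mice, 2 of 55 members tested were higher and 0 lower (background 1.74% and 0.992% of 16634 genes). Hist1h1c stood at 26.1, 20.7, 22.0 and 17.0 CPM in the inputs of PBS mice 1, 2, 3 and 4 and at 49.4, 51.3, 62.2 and 49.2 CPM in their m6A libraries. The groups did not overlap, and the difference was 1.12 (adjusted P = 0.0165), not called without mouse 2, 3 or 4 (1.05 to 1.11). Hist1h2bb (2.52, adjusted P = 0.0493) again leaned on mouse 4, with 1.75 and no call without it, and lost its call without any of 9 other mice too (2.25 to 2.53).

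KA 24 h mice gave 0 calls among the 55 members (background 0.355%), where 8 had an unadjusted P under 0.05 by edgeR and DESeq2 called 2. Their 3 pairs included both of the shallowest m6A libraries. Hist1h2bc in these mice was at 10.0, 12.9 and 7.17 CPM in the inputs of mice 67, 8 and 98 and at 26.3, 25.4 and 7.86 CPM in their m6A libraries. All 3 mice were higher in m6A, mouse 98 by little.

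KA 2 weeks mice gave 5 members higher and 2 lower, against 6.74% and 4.79% of all genes. Hist1h2bc ran from 12.8 to 29.7 CPM in the 6 inputs (median 17.8) and from 29.1 to 51.9 CPM in the 6 m6A libraries (median 42.8), with overlap between mice but a rise of 0.92 (adjusted P = 0.00132). Hist1h1c (0.72, adjusted P = 0.0197) and Hist1h2bg (1.59, adjusted P = 0.0324) were also higher. Hist1h2ab, an H2A gene, was listed at 0 in 5 of the 6 inputs and at 0.895 CPM in the last, and was read at 0.585 to 3.58 CPM in every m6A library (adjusted P = 0.0159). The inputs were shallower, with 3 counts making 0.374 to 0.981 CPM there and 0.0868 to 0.196 CPM in the m6A libraries. Of the 50-base words of Hist1h2ab, 58.0% were found in Hist1h2ai. Hist1h4a (-1.92, adjusted P = 0.0275) and Hist1h4m (-1.37, adjusted P = 0.0490) were lower, as was the case over all mice, and Hist1h4i (1.24, adjusted P = 0.0490) was higher. Of these 7 members, Hist1h2bc alone kept its call whichever mouse was left out. The calls of the others were lost without mouse 5 and without some other mice, with differences then of 0.59 to 0.73 for Hist1h1c, 1.33 to 1.68 for Hist1h2bg, 2.62 to 2.67 for Hist1h2ab, 1.04 to 1.38 for Hist1h4i, -1.79 to -1.38 for Hist1h4a and -1.41 to -1.09 for Hist1h4m.

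Whether the m6A to input ratio itself shifted after KA was tested directly. No member passed at 2 weeks (background 0.00601%) or at 24 h (background 0.012%) by edgeR, with 4 and 5 of 55 at an unadjusted P under 0.05, and DESeq2 called 0 at both times. A call in the KA 2 weeks mice that was absent in the PBS mice is therefore not shown to be a difference between them.

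Histone levels after KA were compared next. In the m6A libraries at 24 h, 0 of 59 members were called (background 0.178%), with 4 at an unadjusted P under 0.05 by edgeR and 0 called by DESeq2. The 70 genes summed to 459 ± 71.1 CPM (SD, n = 5) in the KA mice and 390 ± 30.0 CPM (SD, n = 3) in the PBS mice. Most members leaned upward, 50 of 59, with a median log2 difference of 0.47 against 0.09 over all genes. The lean lay in the core histones, with class medians of 0.26 (H2A), 0.58 (H2B), 0.55 (H3) and 0.58 (H4) against -0.11 for H1. With the library set as a block the median fell to 0.14, without the 2 shallowest m6A libraries to 0.22, and without KA 24 h mouse 8 to 0.21.

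Within library set 4, the one set with both treatments at 24 h, 33 of 59 members leaned upward. There the median log2 ratio of mean CPM (with 0.5 added) was 0.12 with 2 mice a side, against 0.32 by the same measure over all sets. Summed marker levels were set beside this lean, and their KA and PBS ranges overlapped. The 7 neuron markers reached 1709 to 4863 CPM in KA and 4523 to 5573 CPM in PBS m6A libraries, and the 4 astrocyte markers 550 to 3093 and 859 to 1245 CPM, with none of these genes at 0. In the same order, the microglia markers summed to 118 to 289 and 128 to 178 CPM. The oligodendrocyte lineage markers summed to 907 to 1758 and 1310 to 2698 CPM, and the choroid plexus markers to 27.1 to 910 and 42.1 to 589 CPM. Their part in the lean was not tested.

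**Figure D5:**
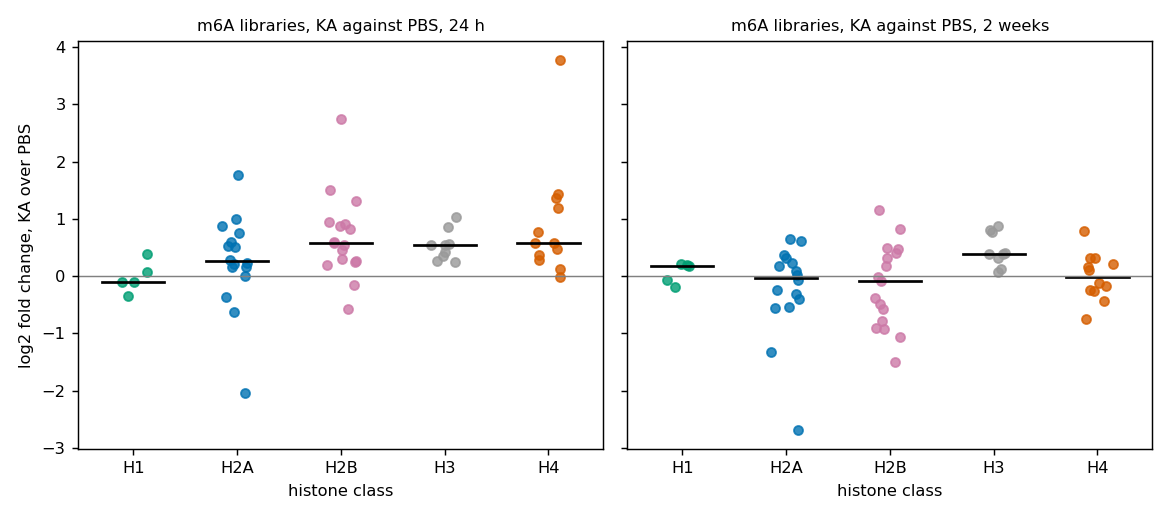
Log2 fold change of KA over PBS in the m6A libraries at 24 h (left) and 2 weeks (right) for each of the 59 histone genes tested, by class. Bars are class medians and no point passed an adjusted P under 0.05. At 24 h the core classes sit mostly above 0 (medians 0.26 to 0.58) and at 2 weeks all 9 H3 genes do (median 0.39), with genes of the other classes on both sides.

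Named members gave the same picture one by one. Hist4h4 in the m6A libraries was at 80.5, 97.6 and 93.6 CPM in PBS 24 h mice 1, 71 and 73 and at 75.3, 127, 107, 117 and 67.8 CPM in KA 24 h mice 67, 79, 8, 97 and 98. The groups overlapped, with a difference of 0.13 (SE 0.33, adjusted P = 0.959). Hist1h1c was at 49.4, 29.0 and 39.1 CPM in those PBS mice and at 30.8, 48.4, 35.5, 35.0 and 32.7 CPM in the KA mice (log2 -0.11, SE 0.27). Hist1h2bc had an SE of 0.33 around a difference of 0.26, so a change of the size seen between m6A and input could have gone undetected.

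Without a test, 4 of 52 members with a mean of 10 counts had every KA 24 h m6A library above every PBS library, against a background of 2.51%, and 0 had every one below (background 1.06%). They were Hist1h1d, Hist1h2ai, Hist1h2bk and Hist1h4i, named after their values were seen. Hist1h2ai, for instance, was at 0.960, 2.22 and 1.57 CPM in the PBS mice and at 3.02 to 11.6 CPM in the KA mice, and its difference of 1.77 was not called. Both ends of that KA range came from the 2 shallowest m6A libraries, mice 98 and 67, where 3 counts make 1.81 and 1.52 CPM. In mice 67 and 98, Hist1h2bk was at 1.01 and 2.42 CPM and Hist1h4i at 1.52 and 2.42 CPM, near those limits.

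At 2 weeks, 0 of 59 members were called in the m6A libraries (background 0.00573%), with 3 at an unadjusted P under 0.05 and 0 by DESeq2. Sums were 452 ± 70.1 CPM (SD, n = 6) after KA and 463 ± 53.9 CPM (SD, n = 5) after PBS, and the median difference was 0.10 against 0.01 over all genes. All 9 H3 genes tested lay above 0 (median 0.39), while 7 of 17 H2B genes did. In library set 5, the one set with both treatments at 2 weeks, 20 of 59 members leaned upward, against 31 over all sets. The median log2 ratio of mean CPM (with 0.5 added) was -0.19 there with 3 mice a side, and 0.03 over all sets. Hist2h2be was at 5.47, 5.62, 5.02, 8.08 and 6.73 CPM in PBS mice 2, 3, 4, 50 and 78 and at 2.75 to 5.17 CPM (median 3.89) in the 6 KA mice, nearly apart, but its difference of -0.58 (SE 0.26) was not called (adjusted P = 0.949). No member had its KA and PBS libraries wholly apart at 2 weeks (background 0.279% above and 0.328% below). No member was called for a KA effect that differed between 2 weeks and 24 h (background 0.00573%, 3 unadjusted, DESeq2 0). Class medians of 2 weeks minus 24 h ran from -0.67 (H4) to 0.03 (H1). Median SEs by class were 0.38 (H1) to 0.94 (H2B), so the effects were not shown to be equal.

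The inputs gave 0 calls of 49 members at 24 h, at 2 weeks and for the difference between the times, where no gene of 17644 was called (background 0, 0 and 0). Members at an unadjusted P under 0.05 numbered 2, 3 and 2, and DESeq2 called 0 in each. The 24 h test rests on a single PBS input, that of mouse 1, which was assumed to vary like the other groups. Its histone genes summed to 333 CPM, against 298 ± 47.6 CPM (SD, n = 3) after KA. At 2 weeks the sums were 357 ± 15.6 CPM (SD, n = 3) after PBS and 342 ± 46.1 CPM (SD, n = 6) after KA. Hist4h4 was at 67.2 CPM in that PBS input and at 82.7 to 90.4 CPM after KA (log2 0.65, SE 0.32, not called), and at 2 weeks at 93.8 to 120 CPM after PBS and 66.0 to 156 CPM after KA.

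Related genes placed these values beside the rest of histone biology. Of 14 replication-independent histone genes, 12 were tested between m6A and input, and 3 were higher and 0 lower, with a median of -0.02. They were the H2A variant H2afj (0.98, adjusted P = 2.0e-05), the linker histone H1f0 (0.47, adjusted P = 0.00154) and the DNA-damage variant H2afx (0.58, adjusted P = 0.0208). Of 17 genes that transcribe or process histone mRNA, 5 were higher and 3 lower, beside 15.6% and 14.6% of all genes. Those higher included Cstf2t, a cleavage stimulation factor (0.54, adjusted P = 0.000148), Casp8ap2, a factor for histone gene transcription (0.58, adjusted P = 0.000654), and Ncbp1, which binds the mRNA cap (0.41, adjusted P = 0.00447). Those lower were Cpsf3l, Upf1 and Lsm11 (-0.36, -0.36 and -0.31), named after their values were seen.

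Proliferation and DNA replication genes mark the cells in which these histone genes are known to be switched on. Of 26 such genes, 20 were tested between m6A and input, where Mki67, a marker of cycling cells, was higher (0.31) and Mcm6, a subunit of the replicative helicase, lower (-0.32). After KA at 24 h none was called in either assay, yet 24 of 26 leaned upward in the m6A libraries (median 0.84) and 23 of 26 in the inputs (median 0.90). Over all genes, 10210 of 17440 lay above 0 in the m6A libraries (median 0.09) and 11635 of 17644 in the inputs (median 0.27). The summed level of the 26 genes did not show a broad rise. It was 398 to 948 CPM (median 413) in the KA m6A libraries and 328 to 511 CPM (median 494) in the PBS ones. In the inputs it was 323 to 749 CPM (median 348) after KA and 450 CPM in the single PBS input. KA 24 h mouse 8 stood apart on the listed gene Ccnb1 and on Cenpa of the replication-independent list, both named after their values were seen. Its m6A library held 16.1 CPM of the centromeric histone Cenpa, against 1.01 to 2.50 CPM in the other KA 24 h mice, and its input held 11.9 CPM of the cyclin Ccnb1, against 1.02 and 1.64 CPM. Replication-independent histone genes had a median of 0.02 in the same m6A comparison, with 7 of 12 above 0. The part of cycling cells in the histone values was not tested.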

How the data were processed

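The authors deposited raw counts per gene as text tables, with 4 lanes for each library. Lanes were summed and counts were scaled to a total of 1000000 per library (CPM). Reads had been aligned to mm10 per the submitters' processing notes, with no aligner or counter named there. Columns of the tables that matched no sample (8) were not used, and 140 were. Mice were grouped by treatment and time from the labels, and the assay of 27 libraries was inferred from a numeric prefix of the column name or its absence. Members and gene lists were chosen with earlier results of these data known. Separate animals are named by the labels, so that n counts mice.

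Genes passing filterByExpr were tested with edgeR 4.0.16 in R 4.3.3 (TMM, robust quasi-likelihood fit, Benjamini-Hochberg adjustment, threshold 0.05) over all genes. m6A against input was fitted over 26 libraries of 13 mice with the mouse as a block, since both libraries come from the same animal. As a check, deviations from the group means of a mouse's pair correlated by -0.02 to 0.83 (median 0.40, above 0.1 in 10 of 12 pairs). KA against PBS was fitted over 4 groups in each assay. Library set is the number that opens an m6A column name and, for inputs, whether the name opens with the word Input. On simulated counts, 196 of 196 genes changed 4-fold were recovered in the within-mouse fit over 14605 genes, and 59 of 177 in the input fit at 24 h. Each simulated gene had a single mean and the same fixed spread, with no mouse or library set effect. The recovery therefore checks the fits and does not give their power for smaller changes in these libraries.

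Values per library are given for the most counted gene of each class, the next 5 by input level, up to 4 called genes per comparison and direction, and the polyadenylated and testis lists. From other lists, up to 3 called genes per comparison are named. Alternatives were DESeq2 1.42.0, scaling by totals, other filters, shallow inputs kept, no mouse block, library set as a block and each mouse left out. No pair of libraries was within sampling noise. Sequences and positions are from RefSeq (GRCm38.p6) and GENCODE (GRCm39).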

Additional observations from a re-analysis of the deposited data

Results flagged for a closer look

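In groups of 4 to 10 libraries, 17 of 112 sets of values had a lowest or highest library set far from the others (Dixon's criterion at 95%). For independent, normally distributed values chance gives this in about 1 in 20 groups. Here the sums contain named members and some values are at or near 0, so 17 cannot be set against that rate. In the m6A library of KA 24 h mouse 67, one of the 2 shallowest, the sum of all members was 583 CPM (others 413 to 454), the H2A sum 209.6 CPM (others 87.7 to 122), the H3 sum 31.3 CPM (others 12.8 to 14.9) and Hist1h4m 6.57 CPM (others 0.965 to 1.81). KA 24 h mouse 79 had 48.4 CPM of Hist1h1c in m6A (others 30.8 to 35.5) and an H1 sum of 91.2 CPM (others 69.7 to 75.3). KA 24 h mouse 8 had the testis genes Hist1h1t at 1.26 CPM and Hist1h2aa at 0.445 CPM in m6A (others at most 0.0938 and 0.0625).

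In PBS 2 weeks mouse 4, the library with the turned split of the H2A copies, m6A values were 14.7 CPM for Hist1h2bb (others 0.901 to 2.44), 6.69 CPM for Hist1h4m (others 0.526 to 2.14) and 3.80 CPM for Hist1h2ab (others 0.789 to 1.66). PBS 2 weeks mouse 2 had 0.0720 CPM of Hist1h2aa in m6A, where the others were at 0. In that library 3 counts make 0.216 CPM, so the value lies below this limit. Among KA 2 weeks libraries, mouse 5 had an H2B sum of 119 CPM in m6A (others 85.5 to 96.6). In the inputs of that group, mouse 6 had an H1 sum of 68.9 CPM (others 51.5 to 57.9), mouse 21 an H3 sum of 6.11 CPM (others 12.8 to 16.6), mouse 42 Hist2h2be at 5.62 CPM (others 2.94 to 3.92) and mouse 7 Hist1h2ab at 0.895 CPM (others at 0).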

How the results depend on the processing

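Called members kept their direction in all 486 values computed under other settings for 24 gene results, of which 75 were no longer past the threshold. Over all mice, 10 members higher and 5 lower became 14 and 3 when scaled by totals, 12 and 7 with DESeq2, 17 and 7 with no filter, and 11 and 5 when the H2A copies were summed, an alternative chosen after seeing the data, as was leaving out the 2 shallowest m6A libraries (10 and 5). With each mouse left out the counts were 8 to 12 and 3 to 6. In the PBS mice, 2 and 0 became 6 and 0 by totals, 5 and 2 with DESeq2, 10 and 5 with no filter, 1 and 0 at a mean of 10 counts, and 3 and 1 with the shallow inputs, with 0 to 4 and 0 to 1 when a mouse was left out. In the KA 24 h mice, 0 became 2 higher by totals, 2 with DESeq2, 2 with the shallow inputs and 7 with no filter (0 to 1 with a mouse left out). In the KA 2 weeks mice, 5 and 2 became 8 and 1 by totals, 7 and 4 with DESeq2, 12 and 5 with no filter, and 6 and 4 with the shallow inputs, with 1 to 6 and 0 to 4 when a mouse was left out. Without the replicate block that pairs the libraries of a mouse, counts were 9 and 4 over all mice, 0 and 0 in PBS mice, 0 and 0 in KA 24 h mice and 1 and 1 in KA 2 weeks mice. For the change of the ratio after KA, no filter gave 0 higher and 2 lower at 2 weeks, and 2 and 1 at 24 h. KA against PBS gave 0 calls under every setting run. The input median at 2 weeks went from -0.00 to -0.34 with the inputs named Input and the others as blocks. The cause of these moves was not tested.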
